A study of Mus musculus with 6 samples.

Results

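Neurofilaments are the intermediate filaments of neurons, and together with microtubules they form the longitudinal scaffold of the axon. In the vestibular epithelium the sensory hair cells (HCs) are contacted by axons of vestibular ganglion neurons, whose cell bodies lie outside the epithelium. IDPN (3,3'-iminodipropionitrile) is a nitrile that is toxic to vestibular HCs and that is also known for making neurofilaments accumulate in swollen proximal axons. The 10 genes described here were chosen by symbol and all 10 were found among the 52636 genes of the table. They encode the neurofilament subunits (*Nefl*, *Nefm*, *Nefh*), the related filament proteins alpha-internexin (*Ina*) and peripherin (*Prph*), the neuronal tubulin *Tubb3*, the microtubule proteins tau (*Mapt*) and stathmin-2 (*Stmn2*), the growth cone protein *Gap43* and the vesicle fusion protein *Snap25*.

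The samples were 3 Control mice on plain water and 3 IDPN mice with 30 mM IDPN as drinking water for 8 weeks. All were wild-type males of the 129S1/SvImJ strain, aged 2 to 4 months per the study's methods. Each library is bulk RNA of 1 animal, from 2 utricles and 6 cristae, so it mixes HCs, supporting cells, nerve endings, Schwann cells and stroma. In such bulk samples a smaller number of cells of a type and less RNA per cell cannot be told apart. The libraries held 40474847 to 43566332 estimated counts, and the size factors used to normalize the counts lay between 0.825 and 1.21. Mitochondrial genes took 10.1% to 13.0% of the counts in Control and 8.15% to 9.92% in IDPN, and the 100 most abundant genes 48.3% to 54.5% and 44.6% to 48.2%, both without overlap between the groups.

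A coding stretch at the end of the rod is alike among filament genes. It is shown for *Nefl*, *Nefh* and *Ina*, because reads from it could be mixed up between genes whose levels are compared below. Capitals mark the 49 of 60 bases that are identical in these 3 genes.
Nefl: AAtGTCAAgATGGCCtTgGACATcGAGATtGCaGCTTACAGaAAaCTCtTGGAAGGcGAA
Nefh: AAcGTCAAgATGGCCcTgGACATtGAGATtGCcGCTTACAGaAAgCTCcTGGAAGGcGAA
Ina: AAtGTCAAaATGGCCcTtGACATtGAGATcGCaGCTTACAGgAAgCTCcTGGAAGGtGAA

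The sequences are from GENCODE M21 transcripts on the GRCm38 build. In each of the 3 genes an intron interrupts the stretch at the same place, after 41 of the 60 bases. The pieces are chr14:68086058-68086098 and chr14:68086487-68086505 for *Nefl* (plus strand, exons 2 and 3), chr11:4943851-4943891 and chr11:4941397-4941415 for *Nefh* (minus strand, exons 3 and 4) and chr19:47021917-47021957 and chr19:47023335-47023353 for *Ina* (plus strand, exons 2 and 3). The stretches are identical at 85% (*Nefl* and *Ina*) to 90% (*Nefl* and *Nefh*) of the bases. Over the whole transcripts, the longest run shared by any pair of the 3 is 20 bases (*Nefh* and *Ina*), which is shorter than the 76-base reads. *Nefm* and *Prph* were not part of this comparison.

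In Control libraries the members covered a wide range of levels. Levels between genes were compared as normalized counts per kb of exon length. *Nefl* was highest, at 874 to 951 per kb, which placed its Control mean above 93.6% of 25630 detected genes. It was followed by *Nefm* (207 to 233), *Snap25* (88.04 to 106), *Mapt* (53.6 to 72.1) and *Ina* (14.6 to 36.2). The Control libraries of each of these 5 genes did not overlap with those of the next. In IDPN the order was the same down to *Nefm*, while *Snap25* (43.4 to 60.6) and *Mapt* (46.7 to 60.9) overlapped. The other 5 genes were low, with *Prph* between 2.43 and 10.2, *Tubb3* between 2.86 and 9.74, *Stmn2* between 1.59 and 2.60, *Gap43* between 0 and 2.92 and *Nefh* between 0 and 2.45 per kb. *Prph* and *Tubb3* overlapped, as did *Stmn2*, *Gap43* and *Nefh*, while *Tubb3* lay above *Stmn2* and *Nefh* in every Control library.

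*Tubb3*, which is widely used to label vestibular afferents, had 15, 6 and 6 counts in Control and 6, 12 and 10 in IDPN. *Nefh*, whose protein carries the longest of the neurofilament tails, had 2, 0 and 11 counts in Control and 1, 1 and 3 in IDPN. *Stmn2* had 12, 8 and 10 counts in Control and 22, 5 and 3 in IDPN, and *Gap43* had 0, 0 and 5 against 5, 0 and 2. The groups overlapped for each of these 4 genes. Low counts were also found among general neuron markers, of which 7 of 16 stayed under 10 counts in every library and the vesicular glutamate transporter *Slc17a7* had 0 counts in all 6.

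**Figure D1:**
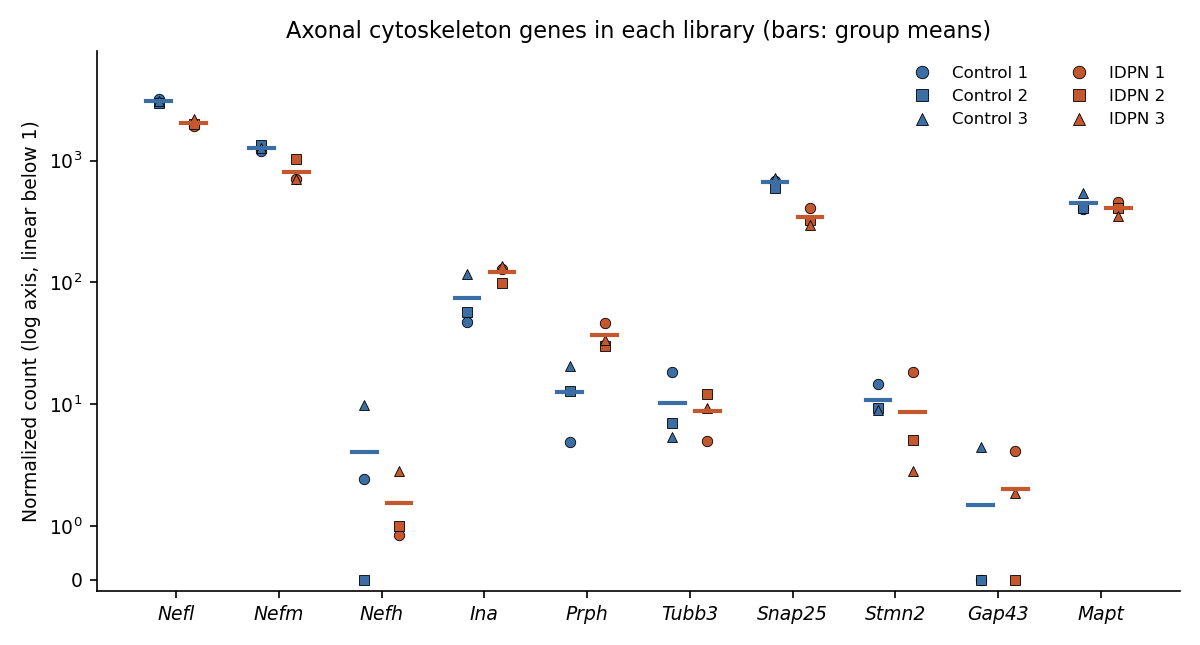
Normalized counts of the 10 genes in each library, on a log axis that is linear below 1. Blue symbols are the 3 Control libraries, orange symbols the 3 IDPN libraries, and bars the group means. Control and IDPN libraries do not overlap for *Nefl*, *Nefm*, *Snap25* (lower in IDPN) and *Prph* (higher in IDPN). Among all genes tested, this held for 11.4% with IDPN lower and 11.1% with IDPN higher.

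To determine whether IDPN changed these transcripts, the groups were compared with DESeq2 on all genes, with a call at Padj under 0.05 and a fold change above 1.5. *Nefl*, *Nefm* and *Snap25* were downregulated, and none of the 10 genes was upregulated. Of all 17650 genes tested, 3.42% were called lower and 2.32% higher (5.75% in either direction). The edgeR test called *Nefl* and *Snap25* lower, beside 2.19% of 16310 genes. Padj was available for 8 of the 10 members, and not for *Nefh* and *Gap43*, whose counts were too low. The calls depended on the scaling of the libraries. With size factors proportional to total counts, which moved the log2-Fold_Change of the median gene by 0.25, the 3 genes stayed lower but none of them was called (DESeq2 Padj between 0.124 and 0.377), and the calls over all genes moved from 604 lower and 410 higher to 214 lower and 609 higher. The part of the library composition given above in these calls was not tested.

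*Nefl* (ENSMUSG00000022055.7, chr14:68083863-68089095) encodes the light subunit, on which the assembly of the other neurofilament subunits depends. Its normalized counts in animals 1, 2 and 3 were 3213, 2953 and 3090 for Control, and 1936, 2002 and 2192 for IDPN. All later values are given in this order. Every IDPN library lay below every Control library, as was the case for 11.4% of all genes tested. Control averaged 3085 ± 130 and IDPN 2043 ± 133 (SD, n = 3 each). The DESeq2 log2-Fold_Change was −0.59, with an SE of 0.15 and a Padj of 0.00212. The 1.51-fold decrease lay close to the threshold of 1.5. Without Control 1 (−0.57), IDPN 1 (−0.55) or IDPN 2 (−0.58) the fold fell short of it, while the DESeq2 Padj stayed between 0.0129 and 0.0323. Scaled to the library total (CPM) the groups did not overlap either, at 60.3 to 80.1 for Control and 45.8 to 58.04 for IDPN.

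*Nefm* (ENSMUSG00000022054.11, chr14:68082590-68124846) encodes the medium subunit and is the neighbour of *Nefl* on the opposite strand. Its normalized counts were 1199, 1346 and 1266 in Control and 702, 1029 and 711 in IDPN. IDPN 2 was the closest to Control, yet still below it. Control averaged 1270.5 ± 73.3 and IDPN 814 ± 186 (SD, n = 3 each). The DESeq2 log2-Fold_Change was −0.64, with an SE of 0.20 and a Padj of 0.0218. This call was weaker than that of *Nefl*, since edgeR gave an adjusted p of 0.0719 and since it was lost without Control 1 (DESeq2 Padj = 0.0608), Control 2 (0.152), IDPN 1 (0.165) or IDPN 3 (0.166). As CPM the groups overlapped, with Control 1 at 23.4 and IDPN 2 at 23.5. Annotated exons of *Nefl* and *Nefm* share 1108 bases on opposite strands through a long *Nefm* transcript, and the library protocol does not mark strand, so reads of that part cannot be assigned with certainty.

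*Snap25* (ENSMUSG00000027273.13, chr2:136713453-136782428) encodes a protein of the SNARE complex, which fuses synaptic vesicles with the plasma membrane. Its normalized counts were 685, 598 and 722 in Control and 411, 327 and 295 in IDPN. The lowest Control library was 598 and the highest IDPN library 411, so the groups were well apart. Control averaged 668 ± 63.6 and IDPN 345 ± 60.1 (SD, n = 3 each). This was a 1.94-fold decrease, with a DESeq2 log2-Fold_Change of −0.96 (SE 0.20) and a Padj of 0.000168. The edgeR test also called it (adjusted p = 0.0174), and it kept its call without any single library.

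*Mapt* (ENSMUSG00000018411.17, chr11:104231390-104332090) encodes tau, which binds and spaces axonal microtubules. Its normalized counts were 404, 406 and 543 in Control and 458, 406 and 352 in IDPN. The groups overlapped, and the log2-Fold_Change of −0.16 (SE 0.21, DESeq2 Padj = 0.803) had a 95% interval from −0.57 to 0.26, so changes beyond about 1.5-fold lie outside it. The sign turned to 0.077 under total-count scaling. Within each library, the ratio of *Snap25* to *Mapt* per kb does not depend on the scaling between libraries. It was 1.88, 1.63 and 1.47 in Control and 0.995, 0.895 and 0.930 in IDPN, without overlap. This pair was chosen after the values had been seen and was not tested.

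**Figure D2:**
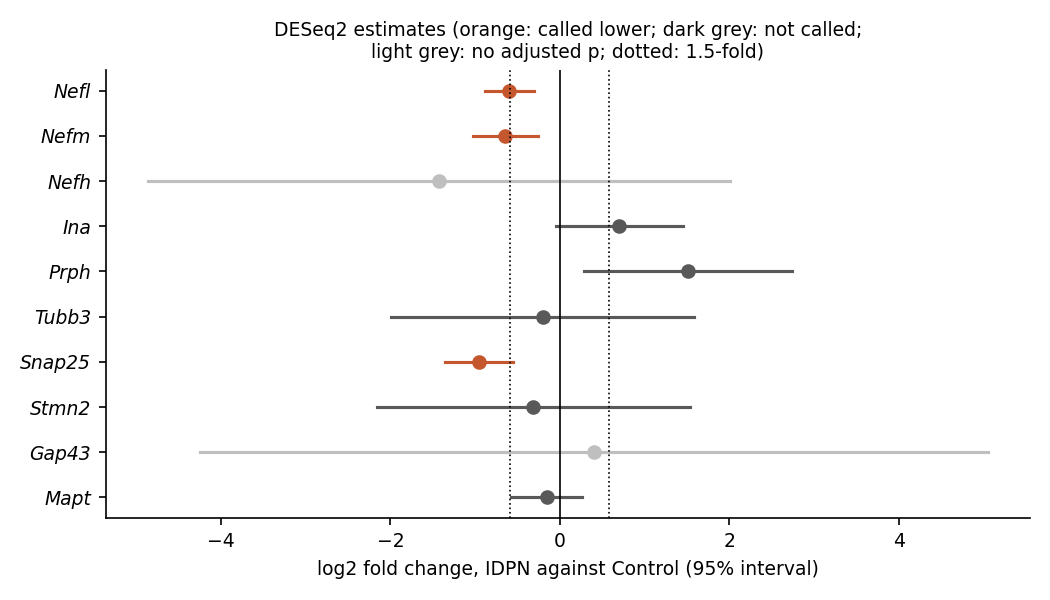
DESeq2 log2-Fold_Change of each gene (IDPN against Control) with its 95% interval. Orange genes were called lower, dark grey genes were not called, light grey genes had no adjusted p, and dotted lines mark a fold change of 1.5. The intervals of *Nefl*, *Nefm* and *Snap25* lie below 0, and those of *Nefh* (−4.86 to 2.01) and *Gap43* (−4.25 to 5.05) span too wide a range to show a change.

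Peripherin and alpha-internexin did not follow *Nefl* and *Nefm*. *Prph* (ENSMUSG00000023484.13, chr15:99055174-99058978) encodes a filament protein of peripheral neurons, which in the inner ear labels thin afferent fibres. Its counts before normalization were 4, 11 and 23 in Control and 56, 30 and 36 in IDPN. Every IDPN library exceeded every Control library, as it did for 11.1% of all genes tested. The normalized means were 12.7 ± 7.81 and 36.7 ± 8.54 (SD, n = 3 each). The log2-Fold_Change of 1.51 (SE 0.63) was not called (DESeq2 Padj = 0.148), and at such low counts its 95% interval ran from 0.28 to 2.74. *Prph* passed the threshold without Control 3 (2.06, DESeq2 Padj = 0.0473), the Control library in which it was highest.

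*Ina* (ENSMUSG00000034336.3, chr19:47014698-47025327) encodes a filament protein that co-assembles with the neurofilament subunits. Its counts were 39, 49 and 132 in Control and 155, 99 and 145 in IDPN. Control 3 lay above IDPN 2, so the groups overlapped. The normalized means were 73.8 ± 38.1 and 121 ± 19.03 (SD, n = 3 each), and the log2-Fold_Change of 0.70 (SE 0.38) was not called (DESeq2 Padj = 0.336). It was called without Control 3 (1.22, DESeq2 Padj = 0.0158). Exons of *Ina* share 456 bases with *Nt5c2* on the other strand, which had a log2-Fold_Change of −0.02 (DESeq2 Padj = 0.976) and mean normalized counts of 3425 in Control and 3379 in IDPN. Control 3 also stood apart by the small heat shock gene *Hspb1*, at 51585 normalized counts against 4605 to 8988 in the other 5 libraries. The part of this difference between libraries in the *Prph* and *Ina* values was not tested.

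The composition of the filament transcripts, as the share of each gene in the counts per length of the 5 genes, is free of any scaling between libraries. *Nefl* made up 80.9%, 77.3% and 77.3% in Control and 75.6%, 72.6% and 78.1% in IDPN, and *Nefm* 14.8% to 21.8% over the 6 libraries. These shares overlapped between the groups (two-sided exact permutation p = 0.30 for *Nefl* and 0.60 for *Nefm*). The share of *Ina* was 1.24%, 1.54% and 3.07% in Control and 5.23%, 3.76% and 5.03% in IDPN. The share of *Prph* was 0.206%, 0.562% and 0.866% in Control and 3.06%, 1.85% and 2.02% in IDPN. For both genes all IDPN libraries lay above all Control libraries. Both gave p = 0.10 in the exact permutation test, which is the lowest value reachable with 3 libraries a group, and 0.25 after Benjamini-Hochberg adjustment over the 5 shares. This test therefore cannot pass 0.05 here. *Nefl* and *Nefm* made up most of the total, so the other shares also rise when they fall. In normalized counts *Ina* overlapped between the groups (Control 3 at 117, IDPN 2 at 99.4), while *Prph* did not. No background over all genes was computed for these shares. Together, *Ina* and *Prph* made up 2.496% ± 1.29 of the filament transcripts in Control, against 6.98% ± 1.35 for IDPN (SD, n = 3 each). The share of *Nefh* stayed at or below 0.207% in all 6 libraries. The ratio of *Nefm* to *Nefl* per kb was on average 0.241 ± 0.0242 for Control and 0.234 ± 0.0586 for IDPN (SD, n = 3 each), with overlapping libraries.

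**Figure D3:**
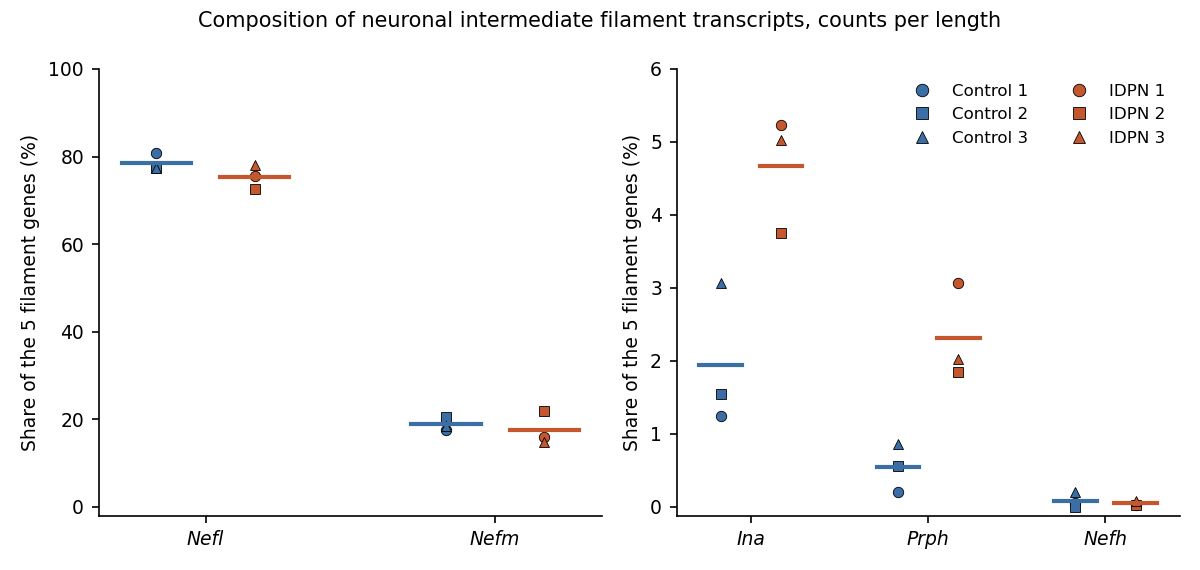
Share of each filament gene in the counts per exon length of the 5 genes, in percent, with *Nefl* and *Nefm* on the left and *Ina*, *Prph* and *Nefh* on the right on a smaller scale. Symbols are libraries (blue Control, orange IDPN) and bars group means. *Ina* and *Prph* are higher in all 3 IDPN libraries than in any Control library, while *Nefl* and *Nefm* overlap. *Nefl* and *Nefm* make up most of the total, so the other shares also rise when they fall.

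To place the decrease of *Nefl* and *Nefm* among the cell types of the tissue, the summed neurofilament triplet (*Nefl*, *Nefm* and *Nefh*, the last adding fewer than 10 normalized counts) was set beside marker lists. The triplet summed to 4415, 4298 and 4366 normalized counts in Control and 2638, 3032 and 2906 in IDPN, a log2 difference of −0.61 (exact permutation p = 0.10, the smallest possible). HC markers, taken as a list, moved by a similar amount. DESeq2 called 8 of 18 HC markers lower and none higher, beside 3.42% and 2.32% of all genes tested. Their median log2-Fold_Change was −0.67 against 0.015 over all genes tested. Under total-count scaling 3 of them were called. Among the 8 were the HC transcription factors *Pou4f3* (5843 to 6831 normalized counts in Control, 3105 to 3261 in IDPN, DESeq2 Padj = 9.34e-10) and *Gfi1* (−1.21, DESeq2 Padj = 2.87e-10) and otoferlin (*Otof*, −0.75, DESeq2 Padj = 1.71e-05), the calcium sensor of HC transmitter release. Single HC markers differed widely, although 17 of the 18 estimates were negative. *Myo7a*, a common HC label, was not called (0.015, 95% interval −0.44 to 0.47, DESeq2 Padj = 0.987). *Tmie* (−0.14, DESeq2 Padj = 0.731), *Espn* (−0.18, DESeq2 Padj = 0.830) and *Myo6* (−0.21, DESeq2 Padj = 0.485) moved little and were not called. The geometric mean of the list lay between 2024 and 2365 normalized counts in Control and between 1312 and 1475 in IDPN.

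The log2 ratio of the triplet to the HC markers was 1.12, 1.02 and 0.884 in Control and 0.838, 1.13 and 1.15 in IDPN. It overlapped between the groups, with a difference of 0.027 (exact permutation p = 0.80, adjusted p = 0.80 over the 3 ratios). The ratio to the Schwann cell markers (*Mbp*, a myelin protein, and other genes of the glia that ensheathe these axons) was −0.077, 0.472 and 0.398 in Control and −0.443, −0.373 and −0.082 in IDPN. Every IDPN library lay below every Control library, with a difference of −0.56 (exact permutation p = 0.10, adjusted p = 0.15), although Control 1 and IDPN 3 nearly touched. The ratio to the neuron markers averaged 7.97 ± 0.044 for Control and 7.52 ± 0.263 for IDPN (SD, n = 3 each) and was lower in every IDPN library as well (difference −0.45, exact permutation p = 0.10, adjusted p = 0.15). Of these 16 markers, 7 stayed under 10 counts in every library, so counts near the floor enter this geometric mean. With summed counts in place of geometric means, which lets the most abundant markers weigh most, the differences shrank to −0.15 for Schwann cell markers and −0.22 for neuron markers, and that for HC markers turned to −0.055. The part of HCs, supporting cells, neurons or Schwann cells in the triplet's decrease was not tested.

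Levels of the neighbouring cell types themselves were as follows. DESeq2 called none of the 9 neuron markers that could be tested, with a median log2-Fold_Change of −0.46. The geometric mean of all 16 was 16.9 to 17.6 normalized counts in Control and 14.1 to 17.5 in IDPN. Their sum, however, was 3131 to 3476 in Control and 2390 to 2707 in IDPN, without overlap. Among the abundant ones were *Isl1*, a transcription factor (1084 to 1389 against 797 to 930, DESeq2 Padj = 0.0513), and *Nsg1*, an endosomal protein of neurons (763 to 811 against 454 to 598, DESeq2 Padj = 0.0426 at a log2-Fold_Change of −0.55, under the fold threshold). *Eno2*, also abundant, overlapped between the groups (879 to 1162 against 742 to 945, DESeq2 Padj = 0.701). The sum rests mostly on *Isl1*, *Eno2* and *Nsg1*. Of the 9 tested markers 7 had negative estimates, while those of *Uchl1* (0.53) and the sparsely counted *Elavl4* (1.12) were positive. Of 11 Schwann cell markers none was called lower, beside 3.42% of all genes tested. The transcription factor *Sox10* was called higher (0.80, DESeq2 Padj = 0.00108), beside 2.32% of all genes tested. The estimates of 8 of the 11 were negative, with a median of −0.28. Their geometric mean ran from 3099 to 4655 in Control and from 3077 to 3926 in IDPN, and their sum from 117807 to 245095 and from 101153 to 123193, with Control 1 highest in both. Of 8 supporting cell markers only the connexin *Gjb6* was called lower (−0.94, DESeq2 Padj = 2.80e-05), beside 3.42% of all genes tested. The estimates of 7 of the 8 were negative, with a median of −0.46. Their geometric mean was 15851 to 18741 normalized counts in Control and 11576 to 15305 in IDPN, without overlap, so supporting cell markers were lower in IDPN libraries along with the triplet and the HC markers. None of 6 stroma markers was called, although all 6 estimates were positive (median 0.34), and their geometric mean was 701 to 1082 in Control and 1020 to 1152 in IDPN.

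**Figure D4:**
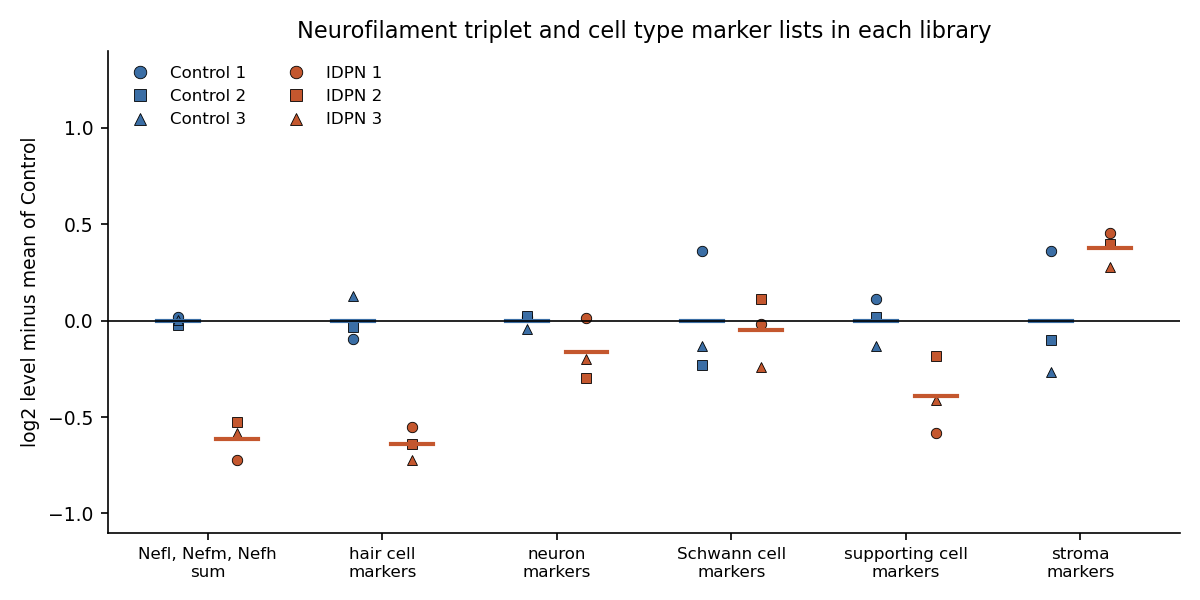
Summed neurofilament triplet and geometric means of marker lists in each library, as log2 level minus the mean of the Control libraries. Symbols are libraries (blue Control, orange IDPN) and bars group means. The triplet and the HC markers are lower in all IDPN libraries by similar amounts (mean differences −0.61 and −0.64), supporting cell markers are lower too (−0.39), and Schwann cell markers overlap between the groups.

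Other genes of the axonal scaffold and of vesicle fusion were examined in 6 lists with 85 genes, of which 77 could be tested. DESeq2 called 4 lower and 1 higher, beside 3.42% and 2.32% of all genes, and the median log2-Fold_Change was 0.023 against 0.015 over all genes tested. Without Control 3 and IDPN 2, which stood apart by *Hspb1* and by *Klf6* (described below), *Map1b* and *Gadd45a* kept their calls, but 5 microtubule genes were called lower in place of 1, and no axon growth or vesicle gene in place of 1 and 2. Among 17 tested microtubule genes only *Map1b*, a microtubule-associated protein of growing axons, was called, from 4576, 4371 and 3655 to 2373, 2540 and 2965 normalized counts (−0.68, DESeq2 Padj = 0.00184). The most abundant gene of this list, alpha-tubulin *Tuba1a*, had 52750 to 90647 in Control and 45016 to 69013 in IDPN (−0.38, DESeq2 Padj = 0.409), and was among those called without the pair of libraries (−0.77, DESeq2 Padj = 0.000420).

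The axonal transport motors showed no call among 18 genes (median −0.047), where DESeq2 gave the kinesin *Kif5b*, the most abundant, a log2-Fold_Change of −0.17 (DESeq2 Padj = 0.751). No call was made either among 9 tested genes of the spectrin and ankyrin membrane skeleton (median 0.092), of which the adducin *Add1* was most abundant (0.15, DESeq2 Padj = 0.689). Among the 11 tested genes that modify or turn over neurofilaments, such as the kinase *Cdk5*, the median was 0.011 and none was called. *Hspb1*, the most abundant of that list, had no DESeq2 Padj.

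Genes of axon growth and injury were mostly low or uneven. Of 10 genes 6 were tested, with *Nrn1*, a membrane-anchored promoter of neurite growth, called lower and the stress-induced *Gadd45a* called higher. *Nrn1* had 91.0, 76.2 and 115 normalized counts in Control and 30.6, 32.1 and 42.9 in IDPN (−1.42, DESeq2 Padj = 0.00556, edgeR adjusted p = 0.0504). The call of *Nrn1* was lost without Control 3 or without IDPN 1. *Gadd45a* had 42.4, 112 and 102 in Control and 234, 273 and 231 in IDPN (1.52, DESeq2 Padj = 0.000250). *Klf6*, the most abundant, stood out in IDPN 2, at 2632 normalized counts against 692 to 798 in the other 5 libraries (0.79, DESeq2 Padj = 0.594). The injury-induced transcription factors *Atf3* and *Jun*, chosen after their values were seen, were also far higher in IDPN 2. *Atf3* had 65.5, 38.1 and 69.4 normalized counts in Control and 102, 3420 and 143 in IDPN. The groups did not overlap, DESeq2 gave no Padj and the edgeR adjusted p was 0.0892. *Jun* had 355 to 374 in Control and 357, 2842 and 510.5 in IDPN (DESeq2 Padj = 0.287).

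Partners of *Snap25* moved unevenly. Of 16 SNARE and vesicle genes DESeq2 called 2 lower and none higher (median −0.13). The calcium sensor synaptotagmin-1 (*Syt1*) had 439, 458 and 456 normalized counts in Control and 334, 234 and 216 in IDPN (−0.79, DESeq2 Padj = 0.0128, edgeR adjusted p = 0.0615). *Snap91*, which acts in vesicle endocytosis, had 592, 582 and 628 in Control and 349, 375 and 406 in IDPN (−0.67, DESeq2 Padj = 0.00638). In these 2 genes, and in 3 others of the list, all IDPN libraries lay below all Control libraries, compared with 11.4% of all genes tested. *Vamp2*, the most abundant vesicle SNARE, overlapped between the groups (−0.18, DESeq2 Padj = 0.751). Under total-count scaling none of the 4 partner genes called lower kept its call.

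**Figure D5:**
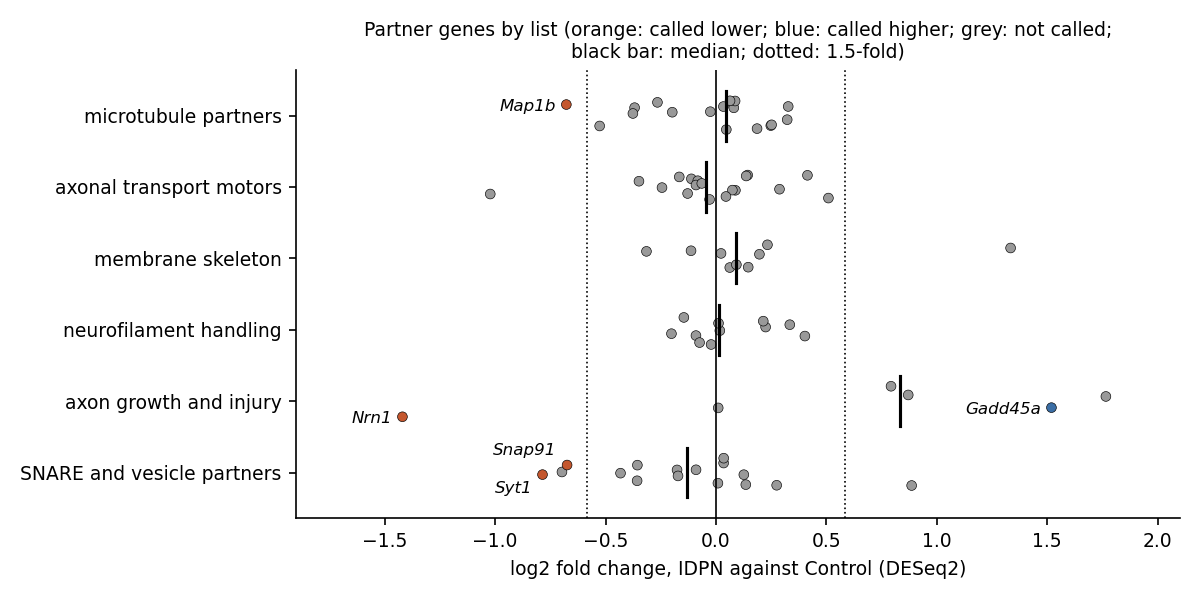
DESeq2 log2-Fold_Change (IDPN against Control) of the tested partner genes in each of 6 lists. Each point is a gene (orange called lower, blue called higher, grey not called), black bars are list medians and dotted lines a fold change of 1.5. The named genes are the 5 that were called, and no gene of the motors, the membrane skeleton or the neurofilament handling list was called.

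Over the 6 libraries, the gene nearest to the profile of the summed triplet among 11766 other genes with a mean of at least 100 normalized counts was *Pkig*, an inhibitor of protein kinase A. Its centred log2 normalized counts differed from those of the triplet by a root mean square of 0.036. The next were *Tril* (0.060), *Ube2e2* (0.062), *Lrrc9* (0.064) and *Cntn1* (0.064), which encodes the axonal adhesion protein contactin-1. These are descriptions of 6 libraries in 2 groups.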

How the data were processed

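RNA-seq libraries (SMART-seq2, oligo-dT primed, 6 to 11 ng of RNA, no strand mark, no molecular identifiers) from 3 Control and 3 IDPN mice were analysed. The authors mapped paired reads with STAR 2.5.3a to GRCm38 and deposited estimated counts (expected counts, as whole numbers, without normalization or filter) from RSEM 2.3.0 on GENCODE M15. RSEM divides ambiguous reads between genes. Intervals cover the spread between animals as modelled, and 1 batch label covers all libraries. In the sample titles, Control animals carry a common code that is absent from IDPN animals, and whatever it stands for cannot be told apart from treatment. IDPN 2 and IDPN 3 share another code, which IDPN 1 does not carry. The labels do not number the replicates, which are separate animals.

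All genes were tested with the DESeq2 Wald test (1.42.0, R 4.3.3, median-of-ratios size factors, no covariate), as in the study's methods, at 40474847 to 43566332 counts per library, with edgeR 4.0.16 as an alternative. Calls needed Padj under 0.05 and a fold change above 1.5. Exact permutation tests (two-sided, SciPy 1.17.1) were used for single values. Geometric means used a pseudocount of 1. Lengths, positions and sequences came from GENCODE M21 (GRCm38). The code was tested on simulated counts.

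The genes and lists were chosen with earlier results of these data known. Named genes were the 10 members, in each partner list the called genes (at most 4 by lowest Padj) and the most abundant gene, and the 5 nearest profiles. Marker genes were named as examples after their values were seen. Some sequences and genes are not reported here.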

Additional observations from a re-analysis of the deposited data

How the results depend on the processing

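Among the 3 genes called lower, 2 were called by edgeR and none under total-count scaling. Without 1 library the number called lower ran from 1 to 3 and the number called higher from 0 to 2. The latter 2, *Ina* and *Prph*, appeared without Control 3. Without Control 3 and IDPN 2 together, a setting chosen after seeing the data, 2 genes were called lower (*Nefm* and *Snap25*) and 1 higher (*Ina*, 1.34, DESeq2 Padj = 0.0308). The 4 partner genes called lower became 2 with edgeR and 0 under total-count scaling, and 2 to 5 without 1 library. The 1 called higher became 2 without the Cook distance filter, and 1 to 2 without 1 library. Over all genes, 604 lower and 410 higher became 357 and 166 with edgeR, 214 and 609 under total-count scaling, and 436 to 720 and 234 to 611 without 1 library. Under total-count scaling the sign turned for *Tubb3* (0.073), *Stmn2* (0.030), *Mapt* (0.077), *Kif5b* (0.075) and *Vamp2* (0.092), none of which was called. Without Control 3 and IDPN 2 together it turned for *Nefh* (0.58), *Mapt* (0.0021), *Hspb1* (0.17) and *Klf6* (−0.11). Without 1 library the log2-Fold_Change ran from −2.18 to 0.36 for *Nefh*, −0.52 to 0.51 for *Tubb3*, −1.47 to 0.11 for *Stmn2*, −0.68 to 3.21 for *Gap43*, −0.25 to 0.0020 for *Mapt*, −0.32 to 0.0014 for *Kif5b*, −2.02 to 0.36 for *Hspb1* and −0.13 to 1.11 for *Klf6*. The cause of these turns was not tested.

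The summed triplet stayed lower in every alternative run (−0.35 under total-count scaling, −0.61 with TMM, −0.65 to −0.55 without 1 library). The shares of *Ina* and *Prph* stayed higher with the longest transcript as length, with no length scaling and without any 1 library (2.37 to 3.28 and 1.39 to 2.00 percentage points). The difference in the share of *Nefh* ran from −0.082 to 0.022. The difference in the ratio of the triplet to HC markers turned to −0.055 with summed markers and ran from −0.036 to 0.13 without 1 library. The libraries are separate animals, and the labels link no Control animal to an IDPN animal, so no paired analysis was run. *Tubb3*, *Stmn2*, *Nefh* and *Gap43*, with at most 22 counts in any library, have wide intervals, so that small changes were not detectable at this depth.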
